A study of Mus musculus with 26 samples.

Results

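The BAF complex, the mammalian SWI/SNF chromatin remodeller, was followed through the 10 genes of its exchangeable subunits as mouse embryonic stem (ES) cells became spinal motor neurons in culture. The genes were Actl6a, Actl6b, Smarcd1, Smarcd3, Dpf1, Dpf2, Dpf3, Phf10, Ss18 and Ss18l1, chosen by name, and all 10 had a single entry among the 37450 gene IDs of the RNA table. RNA depleted of ribosomal RNA was sequenced from 1 library on each of 4 days, 4 of the 26 samples of the series. The day 0 library came from untreated ES cells of the HBG3 line. The day 4 library came from motor neuron progenitors of HBG3, given 1 uM retinoic acid (RA) and 0.25 uM SAG, a Hedgehog agonist, on day 2. The libraries of days 5 and 6 came from the iCre line under the same RA and SAG, with 5 uM DAPT (an inhibitor of gamma-secretase, the protease that releases active Notch) on day 4 for day 5 and on days 4 and 5 for day 6. The labels call both postmitotic motor neurons. A further label names Ainv15 cells for all 4 libraries. Line and DAPT therefore change together with the day between days 4 and 5. The 3 cannot be told apart in that step or in any comparison that spans it.

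BAF complexes use the energy of ATP to slide and evict nucleosomes. They are built from gene families whose members replace each other, so that the same core can carry different subunits in different cells. In neural development the progenitor complex (npBAF) is known to hold Actl6a (BAF53a), Phf10 (BAF45a) or Dpf2 (BAF45d) and Ss18, and the neuronal complex (nBAF) is known to hold Actl6b (BAF53b), Dpf1 (BAF45b) or Dpf3 (BAF45c) and Ss18l1 (CREST). Smarcd1 (BAF60a) and Smarcd3 (BAF60c) are alternative subunits that link the complex to transcription factors.

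The promoters of 4 genes at the ends of this exchange are shown first. Actl6a is the progenitor gene with the highest level. Actl6b, Dpf1 and Dpf3 were higher on day 6 than on day 4, as was Ss18l1, which is not shown. The choice was narrowed to these 4 after the sequences of the members had been read. Each line gives the 250 bases before the annotated start, 5′ to 3′ on the strand of the gene, from RefSeq on GRCm38.p6. Capitals mark matches, on either strand, to 9 short motifs and to CCAAT, a common promoter box that was added after these sequences had been seen. The windows lie at chr3:32708296-32708545 (plus strand) for Actl6a, chr5:137553296-137553545 (plus) for Actl6b, chr7:29303755-29304004 (plus) for Dpf1 and chr12:83487737-83487986 (minus) for Dpf3.
Actl6a: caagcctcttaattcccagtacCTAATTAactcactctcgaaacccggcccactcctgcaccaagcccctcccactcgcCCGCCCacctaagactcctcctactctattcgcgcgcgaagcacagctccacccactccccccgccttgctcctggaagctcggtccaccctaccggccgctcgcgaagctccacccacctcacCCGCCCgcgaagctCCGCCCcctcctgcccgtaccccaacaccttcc
Actl6b: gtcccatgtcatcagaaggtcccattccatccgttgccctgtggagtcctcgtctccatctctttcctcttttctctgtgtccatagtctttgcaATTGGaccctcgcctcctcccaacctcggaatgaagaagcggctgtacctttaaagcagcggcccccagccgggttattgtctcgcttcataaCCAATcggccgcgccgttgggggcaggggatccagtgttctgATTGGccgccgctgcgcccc
Dpf1: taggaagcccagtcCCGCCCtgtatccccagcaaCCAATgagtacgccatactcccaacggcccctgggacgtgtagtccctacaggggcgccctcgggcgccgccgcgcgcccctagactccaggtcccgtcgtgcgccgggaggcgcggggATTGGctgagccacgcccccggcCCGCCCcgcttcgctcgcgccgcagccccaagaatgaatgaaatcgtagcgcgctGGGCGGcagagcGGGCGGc
Dpf3: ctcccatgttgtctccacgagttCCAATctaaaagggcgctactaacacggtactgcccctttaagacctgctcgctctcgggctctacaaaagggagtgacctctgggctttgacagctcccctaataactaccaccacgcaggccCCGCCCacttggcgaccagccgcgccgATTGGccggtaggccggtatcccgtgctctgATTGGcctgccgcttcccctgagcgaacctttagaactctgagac

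The labelled identities were checked against marker genes in the same table. All 5 ES cell markers stood at 35.5 FPKM or more on day 0 and none reached 1 FPKM afterwards, with 1, 3 and 2 of them listed at 0 on days 4, 5 and 6. The summed level of 5 progenitor markers was 259 (day 4), 53.1 (day 5) and 11.7 FPKM (day 6), and that of 6 markers of dividing cells was 589.6, 111.9 and 18.0. The 5 motor neuron markers with a single entry summed to 10.5 (day 4), 157.2 (day 5) and 161.6 FPKM (day 6), and 6 general neuronal markers to 27.4, 604.2 and 1378. A single gene held 116.5 FPKM of the motor neuron sum on day 6. From day 5 to day 6, 1 of these 5 was at least 2-fold higher and 1 at least 2-fold lower. On day 0 the sums were 115.0 (progenitor, with 112.8 in a single gene), 545.1 (dividing), 0.744 (motor neuron) and 33.7 FPKM (general neuronal). Lists for other neural tube neurons, glia, mesoderm with endothelium and blood, and endoderm with epithelium summed to at most 13.2 FPKM each from day 4 on. On days 4, 5 and 6, genes at 1 FPKM or more numbered 0, 1 and 2 of 8 for other neural tube neurons, 3, 1 and 2 of 7 for glia, 3, 1 and 3 of 5 for endoderm and epithelium, and 0 of 6 throughout for the mesodermal list. The progenitor, dividing-cell and neuronal markers changed over the same days as some of the subunits described below. From day 4 to day 5, for example, the levels of Phf10, Actl6a and Ss18 were lower, and those of Dpf2 and Smarcd1 were not. Of these genes, all but Phf10 were lower on day 6 than on day 5. The part of the cell types in the differences of the subunits was not tested. In such bulk RNA, fewer cells of a type and less RNA per cell cannot be told apart.

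The deposited values are FPKM, fragments scaled to gene length and library size, and levels of different genes are set side by side on that basis. The program and gene lengths behind them are not known here, so shares and order between genes are approximate. A difference is given on the scale log2(FPKM + 1), which understates the change of low genes. A gene was called higher or lower where that difference reached 2-fold, among genes with at least 1 FPKM on either day, here called measured. With 1 library a day there is no replicate error for any value here, no test was made, and differences between neighbouring levels cannot be set against a spread.

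Actl6a and Actl6b encode the actin-related subunit of the complex. Actl6a went from 48.8 FPKM on day 0 to 43.6 on day 4, 23.7 on day 5 and 14.9 on day 6. Actl6b stood at 0.0900, 0.136, 2.69 and 12.8 FPKM on the same days. Actl6b thus held 0.184% of the summed level of the pair on day 0 and 0.311% on day 4, then 10.2% on day 5 and 46.3% on day 6, when the 2 levels were within 1.16 times of each other. Actl6a was the most abundant of the 10 genes on days 0 and 4, and on day 6 it came after Dpf1, Dpf2 and Smarcd1. Between days 4 and 6 Actl6b was higher by 3.60 on the log2 scale and Actl6a lower, at −1.49. The summed level of the pair was 43.7 (day 4), 26.4 (day 5) and 27.7 FPKM (day 6). The day 4 level of Actl6b is far below 1 FPKM, so its ratio to later days rests on a level whose read number is unknown.

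Ss18 and Ss18l1 encode alternative partners of the complex that recruit coactivators, and Ss18l1 is known for its role in dendrite growth. Ss18 stood at 23.6 FPKM on day 0, then 21.4 (day 4), 18.8 (day 5) and 11.3 (day 6). Ss18l1 stood at 1.61, 2.40, 6.88 and 14.6 FPKM. This pair crossed: Ss18l1 held 10.1% of the sum on day 4, 26.8% on day 5 and 56.3% on day 6. The summed level stayed between 23.8 and 25.9 FPKM on all 4 days. Ss18l1 was 6.07 times as high on day 6 as on day 4, while Ss18 was 1.89 times as low in FPKM and, at −0.86, within 2-fold on the log2 scale.

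**Figure D1:**
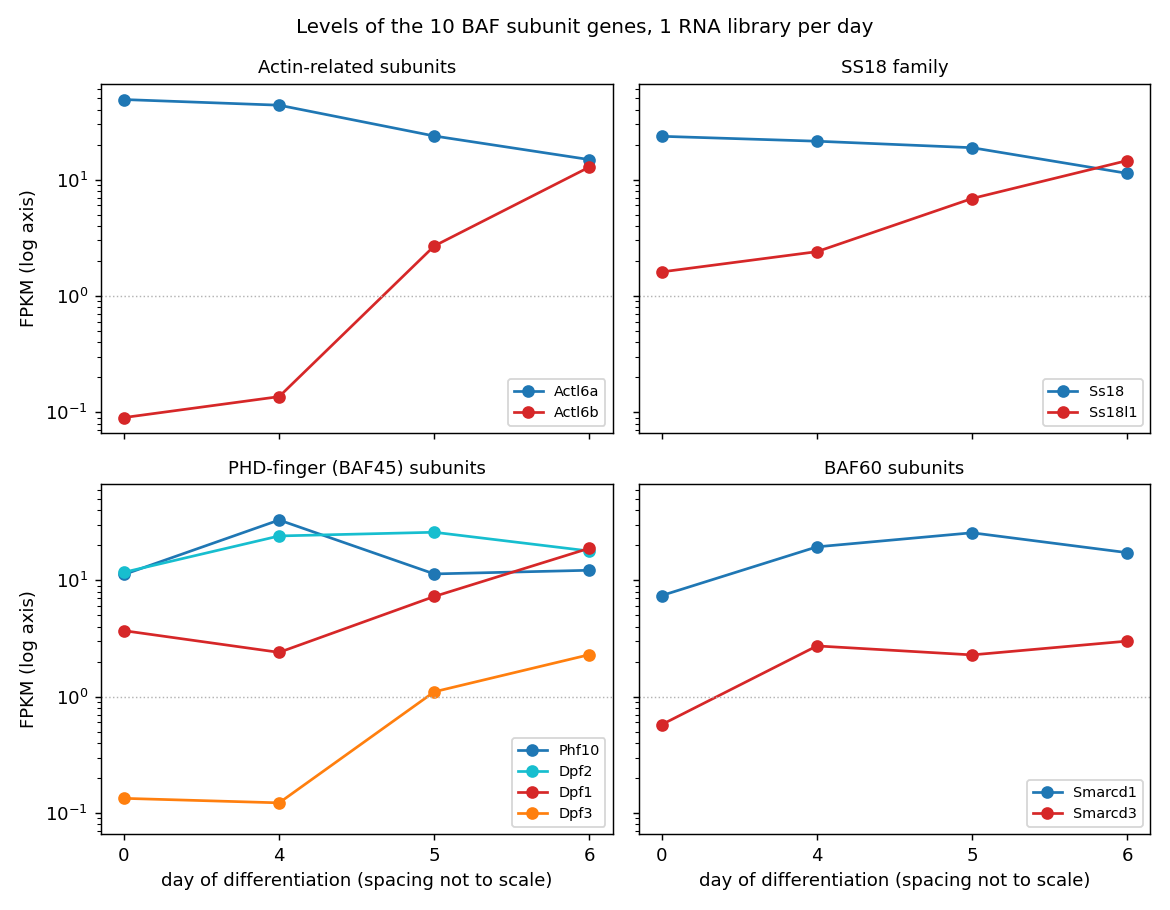
FPKM on a log axis against the day (spacing not to scale), 1 library per point, with progenitor subunits in blue tones, Actl6b, Ss18l1, Dpf1 and Smarcd3 in red, Dpf3 in orange, and a dotted line at 1 FPKM. Ss18l1 passes Ss18 on day 6 (14.6 against 11.3), Actl6b comes to 12.8 against 14.9 for Actl6a, and Smarcd3 stays below Smarcd1 on every day.

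Phf10, Dpf2, Dpf1 and Dpf3 encode the BAF45 subunits, which carry paired PHD fingers that read histone tails. Phf10, which is used in the PBAF form of the complex, stood at 11.2 FPKM on day 0, then 33.0 (day 4), 11.4 (day 5) and 12.2 (day 6). Its high level was confined, among these 4 libraries, to the progenitors of day 4, where it exceeded every other library by at least 2.70 times. Dpf2 followed another course, at 11.7, 24.1, 25.9 and 17.9 FPKM, and was not lower on day 5 than on day 4: the ratio of Dpf2 to Phf10 was 0.729 on day 4 and 2.28 on day 5.

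Dpf1 stood at 3.69 FPKM on day 0, then 2.40 (day 4), 7.27 (day 5) and 18.9 (day 6). Dpf3 stood at 0.134, 0.122, 1.10 and 2.30 FPKM. Both neuronal genes were thus highest on day 6, when Dpf1 exceeded Dpf3 by 8.22 times. Dpf1 was at its lowest in progenitors. Dpf3 lay below 1 FPKM on days 0 and 4, so which of these days was lower cannot be said. Dpf1 stood below Smarcd3 on day 4 and was the highest of the 10 genes on day 6, just above Dpf2. Of the sum of the 4 BAF45 genes, Phf10 held 55.4%, Dpf2 40.4%, Dpf1 4.03% and Dpf3 0.205% on day 4. On day 6 Dpf1 held 36.8%, Dpf2 34.9%, Phf10 23.8% and Dpf3 4.48%. Dpf1 and Dpf3 together held 14.3% on day 0, 4.24% on day 4, 18.3% on day 5 and 41.3% on day 6. This share was lower in progenitors than in ES cells, unlike that of Ss18l1. Actl6b lay below 1 FPKM on days 0 and 4, so no direction can be given for its share between them.

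Smarcd1 stood at 7.41 FPKM on day 0, then 19.4 (day 4), 25.6 (day 5) and 17.3 (day 6). Smarcd3, known from heart and neural progenitors, stood at 0.576, 2.73, 2.29 and 3.00 FPKM. Smarcd3 held 7.21% of the sum of this pair on day 0, 12.3% on day 4, 8.18% on day 5 and 14.8% on day 6. The 2 genes did not change places, and their main difference lay between ES cells and progenitors, where both were higher on day 4 (1.28 for Smarcd1 and 1.24 for Smarcd3 on the log2 scale). In RefSeq, Smarcd3 overlaps Chpf2 on the opposite strand over 1777 bases, and Phf10 overlaps 1600012H06Rik over 946 bases. Smarcd1 overlaps the noncoding gene Gm34939 on the opposite strand over 1518 bases and the pseudogene Gm17241 over 342. Dpf3 overlaps the pseudogene Gm18872 over 25073 bases, and Ss18 the small nuclear RNA gene Gm24924 over 164. The library titles end in fwd, which the labels do not explain, and no source used here says whether counting used strand, so reads in these stretches cannot be assigned with certainty. Chpf2 stood at 2.20, 5.28, 6.02 and 5.48 FPKM on the 4 days, so it was higher on day 4 than on day 0, as Smarcd3 was. The levels of 1600012H06Rik were 4.30, 4.18, 3.77 and 3.17 FPKM. The part of the overlaps in the levels of Smarcd3, Phf10, Smarcd1, Dpf3 and Ss18 was not tested.

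The log2 ratio of 2 genes within a library does not move with its scaling, except through the amount added to each side, which matters for genes near that amount, as Actl6b and Dpf3 were on days 0 and 4. With 0.1 FPKM added, the ratio of Actl6b to Actl6a was 7.32 higher on day 6 than on day 4, of which 4.44 lay between days 4 and 5 and 2.88 between days 5 and 6. For Ss18l1 over Ss18 the difference was 3.46 (1.66 and then 1.80), and for Dpf1 and Dpf3 over Phf10 and Dpf2 it was 3.94 (2.30 and then 1.64). For Smarcd3 over Smarcd1 it was 0.30, made of −0.65 and then 0.94. With nothing added the difference for Actl6b over Actl6a was 8.11, and with 1 FPKM added it was 5.10. The step from day 5 to day 6 lies within the line that the growth label names iCre, and the day 6 library also had DAPT on a further day. From day 0 to day 4, within the HBG3 line, the 4 ratios differed by 0.48, 0.69, −1.89 and 0.69 in the same order.

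**Figure D2:**
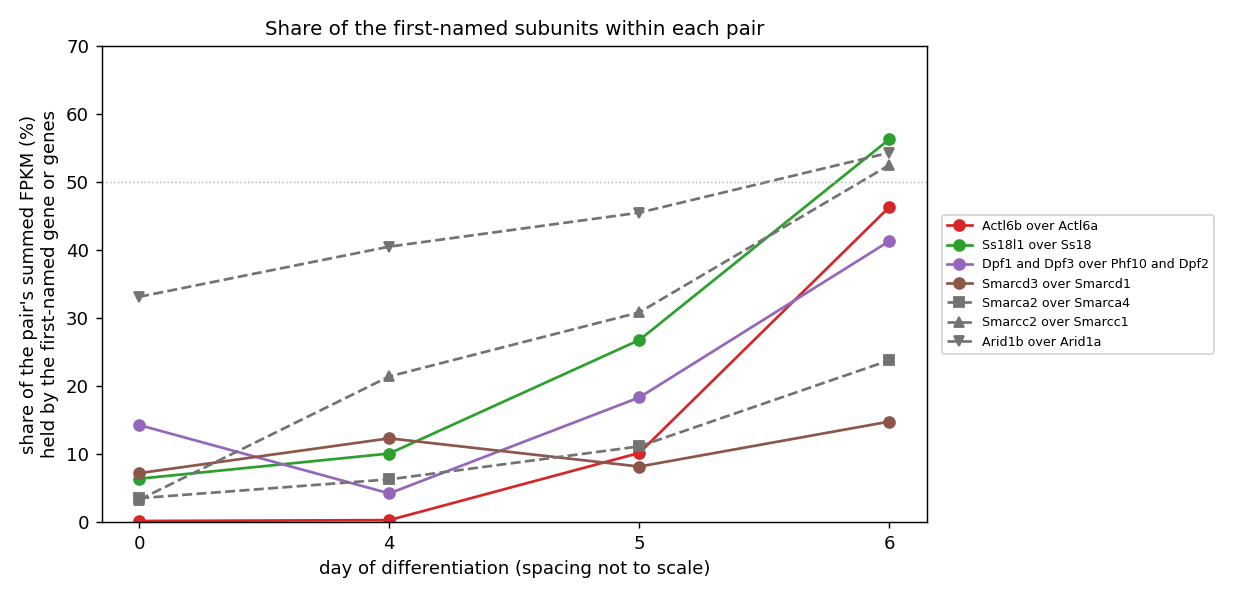
Percent of the summed FPKM of each pair held by the first-named gene or genes, against the day, with the 4 exchanges of the members as solid lines and 3 other paralog pairs of the complex as dashed grey lines. On day 6 the shares are 46.3% for Actl6b, 56.3% for Ss18l1, 41.3% for Dpf1 with Dpf3 and 14.8% for Smarcd3, and the dotted line marks 50%.

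Set against all genes, the step from ES cells to progenitors held 8 measured members, because Actl6b and Dpf3 lay below 1 FPKM on both days. Of the 8, Phf10 (1.48), Smarcd1 and Smarcd3 were called higher and none lower, where 19.3% of 11482 genes were higher and 11.9% lower. Dpf2 was just within 2-fold, at 0.98. The median gene itself was 0.23 higher on day 4. Dividing each library by its median ratio to the 4-library mean, called rescaling here, removed a shift of 0.26, after which 13.9% of all genes were higher and 15.5% lower, and the 3 calls held, at 1.22, 1.03 and 1.08.

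From day 4 to day 5, the step that also changes line, all 10 members were measured. Actl6b and Dpf3 were measured only through their day 5 levels, so they could not have been called lower. Actl6b (1.70), Dpf1 (1.28) and Ss18l1 (1.21) were called higher, where 11.5% of 11339 genes were, and Phf10 (−1.46) was called lower, where 14.7% were. Dpf3 was at 0.91 and Actl6a at −0.85, both within 2-fold on this scale, although Dpf3 differed by 9.01 times in FPKM. Rescaling removed a shift of −0.15 and kept these 4 calls, with 13.4% of all genes then higher and 11.6% lower. Of all genes measured in this step, 4.12% were as much higher as Actl6b and 6.61% as much lower as Phf10.

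From day 5 to day 6 Actl6b (1.91) and Dpf1 (1.27) were called higher, where 6.57% of 11164 genes were, and no member was called lower, where 6.19% were. Ss18l1 stood at 0.98 and was called at 1.12 after rescaling, which removed a shift of −0.15 and gave 8.17% of all genes higher and 4.98% lower. Ss18 (−0.69), Actl6a (−0.64), Smarcd1 (−0.54) and Dpf2 (−0.51) lay within 2-fold, each below its day 5 level. In this step 1.09% of genes were as much higher as Actl6b.

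**Figure D3:**
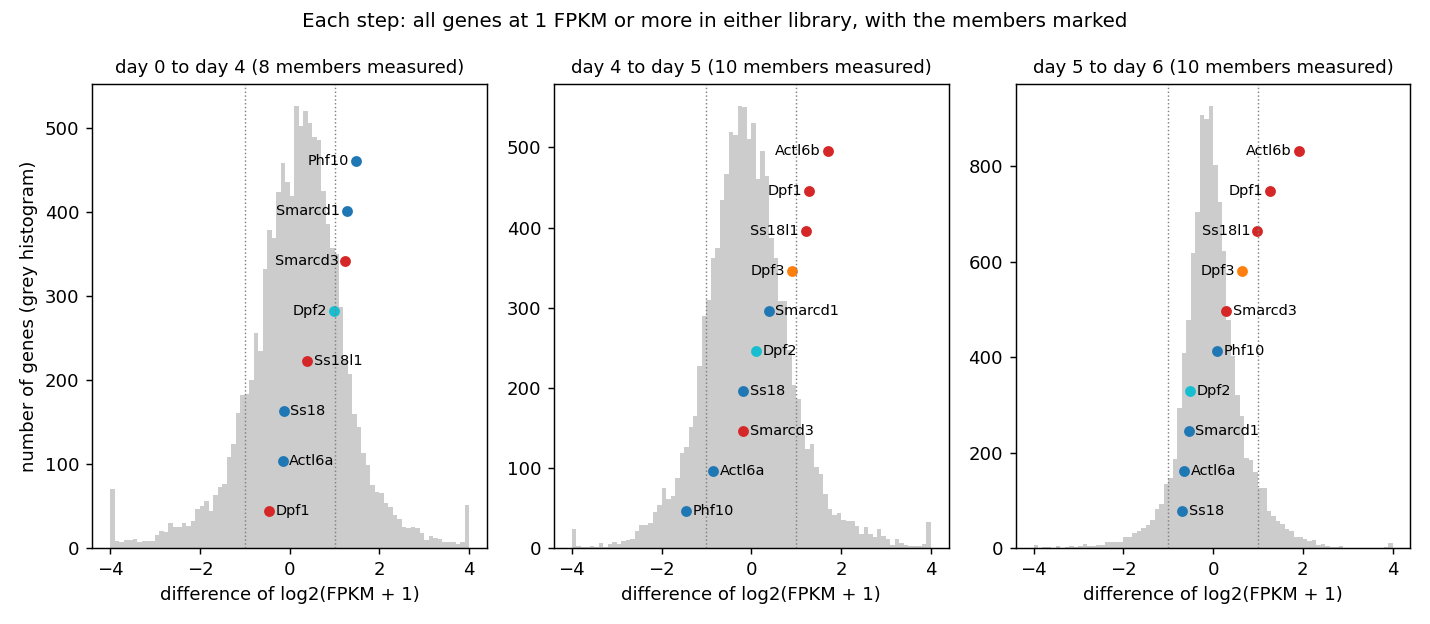
Histogram of the difference of log2(FPKM + 1) for all genes measured in each of 3 steps, with values beyond 4 in the end bins, measured members as points at arbitrary heights and dotted lines at 2-fold. Phf10 is the highest of the members from day 0 to day 4 (1.48) and the lowest from day 4 to day 5 (−1.46), and Actl6b is the highest in both later steps.

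Over both steps, from day 4 to day 6, Actl6b, Dpf1 (2.55), Ss18l1 (2.20) and Dpf3 (1.56) were called higher, where 17.9% of 11697 genes were, and Actl6a and Phf10 (−1.36) were called lower, where 21.9% were. The other 4 genes, Ss18, Dpf2, Smarcd1 and Smarcd3, lay within 2-fold. These 6 calls held after rescaling, with Actl6a at −1.21 and Phf10 at −1.08. Rescaling removed a shift of −0.29 here, after which 22.4% of all genes were higher and 16.3% lower, and the median of the 10 members went from −0.03 to 0.22. This comparison shares its libraries with the 2 steps above and is not independent of them. It also spans the change of line and the addition of DAPT, which cannot be told apart from the day. The 6 members called here are 4 neuronal and 2 progenitor subunits, each in the direction of the exchange as it is known. The genes were listed with that exchange and earlier results of these data in view. Actl6b and Dpf3 lay below 1 FPKM on day 4 and were measured only through day 6, so they could not have been called lower. Their direction therefore adds nothing to the count.

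The remaining subunits of the BAF, PBAF and ncBAF complexes gave 21 genes, all matched. From day 4 to day 6, 20 were measured, 3 were called higher and none lower, where 17.9% and 21.9% of all genes were, and the median difference was −0.02, against −0.18 for all genes (0.31 and 0.09 after rescaling). The 3 were Smarca2, the alternative ATPase to Smarca4 (1.72 FPKM on day 4, 4.13 on day 5, 10.9 on day 6), Smarcc2, a scaffold subunit (5.53, 12.0 and 13.3), and Bcl11a (0.0848, 0.233 and 2.69). With rescaling Actb was called too, at 1.04 in place of 0.74. Smarca4 itself stood at 25.6, 32.9 and 34.8 FPKM, and Smarca2 held 6.30% of the ATPase pair on day 4 and 23.8% on day 6.

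Smarcc1, the paralog of Smarcc2, stood at 24.8 FPKM on day 0, then 20.3 (day 4), 26.9 (day 5) and 12.0 (day 6). Its lower level on day 6 than on day 5 was the 1 call of lower in this list in that step (−1.10), and it was not called after rescaling (−0.96). Smarcc2 held 3.30% of this pair on day 0, 21.4% on day 4, 30.8% on day 5 and 52.5% on day 6. Arid1b held 33.1%, 40.5%, 45.5% and 54.3% of the sum of Arid1a and Arid1b. The 3 further paralog pairs therefore had larger shares of Smarca2, Smarcc2 and Arid1b on each later day, by log2 ratios of 2.15, 2.00 and 0.80 between days 4 and 6.

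From day 0 to day 4, 5 of 19 measured other subunits were called higher: Smarcc2 (1.82), Bcl7a (1.81), Arid1b (1.77), Arid1a (1.51) and Brd7 (1.02), and none lower, where 19.3% of all genes were higher and 11.9% lower. The median of the list was 0.80 (0.64 after rescaling), against 0.23 (−0.01) for all genes. After rescaling Brd7 was not called (0.78) and Actb was called lower (−1.06). Of the 3 partners that mark PBAF, Brd7 was highest on day 4, as Phf10 was, Arid2 stood at nearly the same level on days 4 and 5, and Pbrm1 was highest on day 5. Between days 4 and 5 Pbrm1 went from 23.6 to 44.5 FPKM, Arid2 from 18.8 to 19.0 and Brd7 from 16.5 to 11.6, while Phf10 went from 33.0 to 11.4. Within ncBAF, Brd9 was at 6.66 FPKM on day 4 against 10.9 on day 6, Bicra at 1.09 against 0.629 and Bicral at 1.18 against 1.49, all within 2-fold on the log2 scale. The core subunits Smarcb1 (25.3 and 21.7 FPKM) and Smarce1 (45.2 and 42.8) lay within 2-fold between those days. From day 4 to day 5, 1 other subunit, Actb, was called higher (1.08) and none lower, against 11.5% and 14.7% of all genes, with a median of 0.01, and after rescaling Smarcc2 (1.11) and Pbrm1 (1.02) were called too. From day 5 to day 6, Smarca2 (1.21) and Bcl11a (1.58) were called higher, where 6.57% of all genes were.

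**Figure D4:**
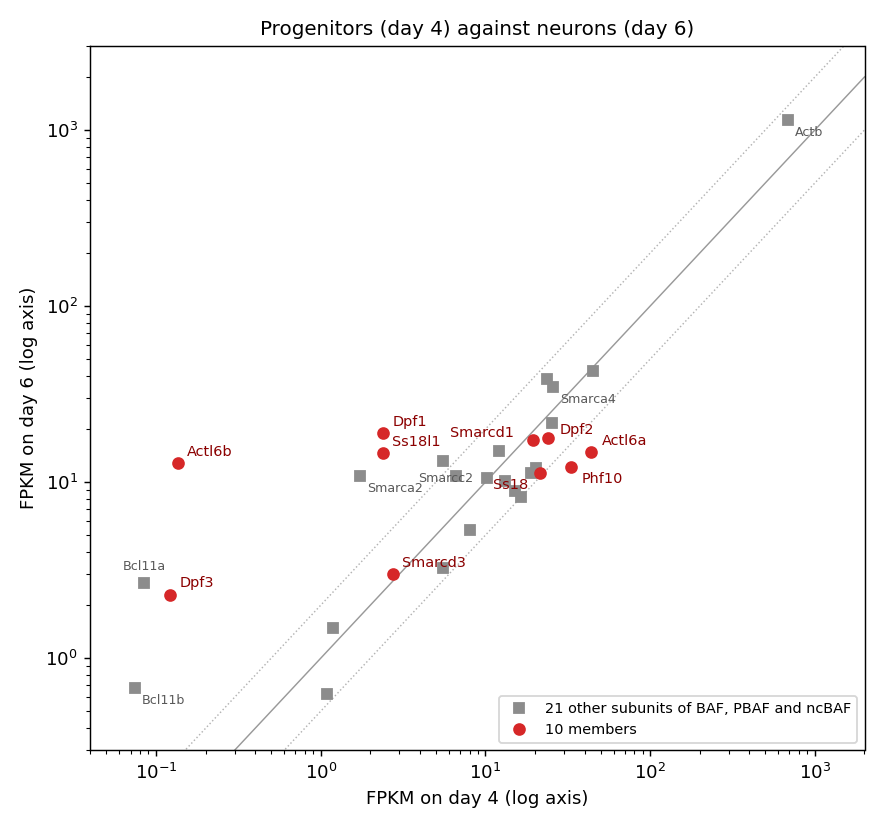
FPKM on day 6 against FPKM on day 4, both on log axes, with the 10 members as red points, 21 other subunits as grey squares, a solid line of equal levels and dotted lines at 2-fold in FPKM. Actl6b, Dpf3, Dpf1 and Ss18l1 lie above the band with Smarca2, Smarcc2, Bcl11a and Bcl11b, and Actl6a and Phf10 lie below it.

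Actl6a is also a subunit of the INO80, SRCAP and TIP60 complexes, so 25 of their other genes were read beside it. Srcap had more than 1 entry and was left out. From day 4 to day 6, of 24 measured genes none was called higher and 4 lower, with a median of −0.45, where 17.9% of all genes were higher and 21.9% lower, with a median of −0.18. The count of lower calls is near the share of all genes, and that of higher calls is below it. The 4 were Ruvbl2 (35.8 to 10.1 FPKM), Ruvbl1 (23.4 to 7.79), which form the ATPase ring of these complexes, Yeats4 (24.9 to 8.06) and Ino80e (10.4 to 4.16). After rescaling 3 stayed lower, without Ino80e (−0.89), 1 gene, Morf4l1 (1.05), was higher, and the median was −0.17. Of all genes, 22.4% were then higher and 16.3% lower. In the single steps, 3 were higher and 1 lower from day 0 to day 4 (0 and 2 after rescaling), 1 higher and 1 lower from day 4 to day 5, and 0 either way from day 5 to day 6. The shares of all genes in these steps are those given above for the members.

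The genes whose profile over the 4 libraries was closest to a member were found by the Euclidean distance between log2(FPKM + 1) values centred on each gene's mean, among genes at 1 FPKM or more in some library. For Actl6b they were Dner (distance 0.11; 0.230, 0.158, 2.88 and 14.0 FPKM), Phactr3, Hecw1 and Mgst3, within 0.17. For Dpf1 they were Tmx4, Rapgef6, Csrnp3, Wbscr17 and Fam49a, and for Dpf3 they were Sv2b, Sestd1, Tspyl5, Fam57b and Ric8. For Actl6a they were Pir (0.03), Ppie, Cep57, Seh1l and Fcf1, within 0.09. Pir lay at 2.45 FPKM or less, and Seh1l stood at 25.7, 23.6, 12.8 and 8.26 FPKM. For Phf10 they were Adamts3, Pycrl, Maob, 9130410C08Rik and Gt(ROSA)26Sor, the last at 3.71, 11.3, 3.33 and 4.28 FPKM. The distances rest on 4 points each and understate differences between low genes.

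Among the members themselves the closest profiles were those of Smarcd1 and Dpf2 (distance 0.47), followed by Smarcd1 and Smarcd3 (0.61) and Smarcd3 and Dpf2 (0.64), and the farthest apart were those of Actl6a and Actl6b (4.33). Dpf1 and Ss18l1 (0.67), Actl6a and Ss18 (0.67), and Dpf1 and Dpf3 (0.71) came next. Actl6b was nearest to Ss18l1 among members (1.05).

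The promoter windows shown above were read for what the members share beyond their names. RefSeq gave a window for 9 of the 10 genes, and Ss18 had none in the table used. Of the 9 motifs searched on both strands in 250 bases, the GC box GGGCGG was present in 7 of 9 windows. Of 32841 promoters of the same length, 32.7% held it, and these were not matched for base content. The 9 windows were 57.2% (Dpf2) to 88.4% (Phf10) G or C, against a median of 52.4% over all promoters. The part of base content in the count of 7 was not tested. The neuronal genes Dpf1, Dpf3 and Ss18l1 and the progenitor genes Actl6a and Phf10 were among the 7. The E box CAGCTG lay in the windows of Smarcd3 and Phf10 (13.0% of all promoters), and the homeodomain motif CTAATTA in that of Actl6a (1.83%), 228 bases before its start. The E box CAGATG (14.4% of all promoters), the Onecut motifs ATCGAT (0.728%) and ATCAATA (1.86%), the E2F motifs TTTCGCGC (0.256%) and TTTGGCGC (0.417%) and the Ets motif CCGGAAG (6.91%) were found in none of the 9. The windows of Actl6b and Dpf2 held none of the 9 motifs, which was the case for 42.9% of all promoters.

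CCAAT or its complement lay 3 times in the window of Actl6b, 3 times in that of Dpf3, 2 times in that of Dpf1 and 1 time in that of Dpf2, and in none of the other 5, including Ss18l1. Of all promoters, 33.9% held at least 1 and 10.1% at least 2. The motif was picked after the sequences had been read, so these counts describe the 3 windows and support nothing. All 9 windows had more CG than the median promoter: the observed over expected ratio was 1.05 for Actl6a and 0.74 for Actl6b, and 1.10 for Phf10, 0.98 for Dpf1, 0.83 for Dpf2 and 0.77 for Dpf3, against a median of 0.37 over all promoters. Psma7, a proteasome gene on the opposite strand, lies 18 bases from Ss18l1 and stood at 71.5, 128.6, 100.6 and 92.2 FPKM, highest on day 4, where Ss18l1 was at 2.40. Each window comes from 1 annotated start, and which start these cells used was not analysed here.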

How the data were processed

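RNA depleted of ribosomal RNA was sequenced from 1 library on each of days 0, 4, 5 and 6. The table holds FPKM made by the authors and deposited for 37450 gene IDs, and 32798 of those IDs have a current gene name. Tools in the submitters' processing notes are STAR, MACS, HOMER 4.7.2 and Bowtie 0.12.7, on build mm9, without a role for any of them. Which program computed the FPKM, and from how many reads, is therefore unknown here. Among the lowest values the most common ratio, which compares what 1 read is worth, was 1.04 for day 4 over day 5 (10.2% of 254 genes) and 1.34 for day 5 over day 6 (12.4% of 314), so the libraries may differ in depth. For day 0 over day 4 no ratio held more than 4.46% of 269 genes.

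Differences were taken as log2(FPKM + 1) where either day reached 1 FPKM, and called at 2-fold, with Python 3.11.15, numpy 2.4.6 and pandas 2.3.3. Each day is a single library, and no test was run. Rescaling divided each library by its median ratio to the geometric mean of the 4, over genes at 1 FPKM or more in all 4. The calls, the profile distance and the motif search were tested on simulated data, which checks the code only. For the calls the spread was assumed, and the planted changes were not in genes as low as Actl6b and Dpf3 on day 4. All 10 members are named in full, other subunits where they were called in a step or form a paralog pair, and further ones as partners of a member, chosen after their values were seen. The 5 genes with the closest profile are named for each of 5 members, except for 1 gene that is not reported here. The members and lists were chosen with earlier results of these data known. The Isl2 and Srcap symbols had more than 1 entry and were left out. Promoter sequences come from RefSeq on GRCm38.p6. The binding, open chromatin and H3K27ac lists give mm9 positions with no gene names, and with gene positions of GRCm38.p6 they could not be placed at the members, so they were not used here.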

Additional observations from a re-analysis of the deposited data

How the results depend on the processing

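With 1 library a day, no call has a replicate check, and how far the low levels of Actl6b and Dpf3 on days 0 and 4 are limited by depth is unknown. The counts of members called kept within 1.5 times their value under a pseudocount of 0.1 FPKM, no filter, a filter at 5 FPKM and both rescalings. At a threshold of 1.5-fold in place of 2-fold, 2 members were lower from day 4 to day 5, and 4 were higher and 2 lower from day 5 to day 6. The share of all genes called at 1.5-fold was not computed, so these counts cannot be set against it. Over the members taken step by step, 3 of 38 calls differed with a pseudocount of 0.1 FPKM (Dpf2 from day 0 to day 4, Dpf3 from day 4 to day 5 and Ss18l1 from day 5 to day 6, all then higher), 1 of 38 under either rescaling (Ss18l1 from day 5 to day 6, then higher), none of 38 without a filter, none of 28 at 5 FPKM and 8 of 38 at 1.5-fold. The difference in the log2 ratio of Actl6b to Actl6a was 5.10 with 1 FPKM added to each side, 8.11 with nothing added and 4.44 with day 5 as the later library. With day 5 as the later library it was 1.66 for Ss18l1 over Ss18, 2.30 for Dpf1 and Dpf3 over Phf10 and Dpf2, and −0.65 for Smarcd3 over Smarcd1, which reversed its direction. With day 0 as the earlier library these 3 came to 4.15, 2.05 and 0.99. These settings use other libraries, and the cause of the differences between them was not tested. No paired analysis was possible because each day has 1 RNA library.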
